A study of Mus musculus with 9 samples.

Results

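The 9 genes described here carry out or control glucose production, glucose breakdown and glycogen turnover in liver cells, and they were taken by name from a table of 56748 mouse genes. Pck1, Fbp1 and Pcx encode enzymes of gluconeogenesis, Pklr an enzyme of glycolysis and Slc2a2 the glucose transporter of hepatocytes. Gys2 and Pygl build and break down glycogen, and Foxo1 and Ppargc1a encode transcriptional regulators. All 9 had a row in the table, and 8 passed the filter on low counts in every comparison. Liver RNA of 9 mice labelled C57BL/6 (C57BL/6J in the study's design text), 3 in each of 3 groups, was sequenced in bulk, and the mice were aged 7 to 8 weeks when bought. Control mice were labelled with water and received 200 uL of it by mouth daily. DSS mice drank 1.8% dextran sulfate sodium, which injures the colon lining, in 3 cycles of 1 week on DSS and 1 week of recovery, and received the same oral water. Indirubin mice had the same DSS cycles and 1 g/kg/day of indirubin, a plant-derived indigo isomer, in that water. The study's design text describes the DSS cycles for the mice together, without setting the Control group apart, so Control is used here as its label reads. No group received indirubin without DSS, and bulk tissue mixes all cells of the liver.

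A fasting liver makes glucose from lactate, amino acids and glycerol. Pyruvate carboxylase, encoded by Pcx, and phosphoenolpyruvate carboxykinase, encoded by Pck1, carry pyruvate past the irreversible step that pyruvate kinase, encoded by Pklr, runs in the other direction after feeding. Fructose-1,6-bisphosphatase, encoded by Fbp1, opposes phosphofructokinase further up the route, and glucose-6-phosphatase, encoded by G6pc, releases the free sugar. Glucagon and glucocorticoids raise the gluconeogenic genes through cAMP response factors, PGC-1 alpha (Ppargc1a) and FOXO1, whereas insulin holds FOXO1 out of the nucleus.

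The promoters of 3 members are shown because Pck1 was among the most abundant members per length in every group, Pcx was the member with the smallest p-value in both indirubin comparisons, and Pklr had one indirubin library within the Control range and 2 below all other libraries. Each window runs 5′ to 3′ on the plus strand from 250 bases before to 50 bases after a RefSeq start on GRCm38.p6, with matched motifs in capitals. Pck1 lies at chr2:173152823-173153122, Pcx at chr19:4510222-4510521 (the upstream of its starts in the RefSeq table) and Pklr at chr3:89136373-89136672 (the downstream of its starts).
Pck1: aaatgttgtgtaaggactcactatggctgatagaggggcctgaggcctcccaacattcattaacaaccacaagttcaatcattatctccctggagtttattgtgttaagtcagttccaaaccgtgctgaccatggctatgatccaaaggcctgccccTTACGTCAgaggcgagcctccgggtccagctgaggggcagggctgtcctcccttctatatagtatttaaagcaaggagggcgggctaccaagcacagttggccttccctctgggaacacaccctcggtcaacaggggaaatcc
Pcx: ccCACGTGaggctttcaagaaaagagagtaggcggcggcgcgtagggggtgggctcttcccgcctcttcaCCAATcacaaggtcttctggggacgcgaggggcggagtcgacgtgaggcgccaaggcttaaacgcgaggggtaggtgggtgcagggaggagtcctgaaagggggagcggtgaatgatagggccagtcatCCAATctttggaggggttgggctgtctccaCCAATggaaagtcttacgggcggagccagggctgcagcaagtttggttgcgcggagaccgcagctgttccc
Pklr: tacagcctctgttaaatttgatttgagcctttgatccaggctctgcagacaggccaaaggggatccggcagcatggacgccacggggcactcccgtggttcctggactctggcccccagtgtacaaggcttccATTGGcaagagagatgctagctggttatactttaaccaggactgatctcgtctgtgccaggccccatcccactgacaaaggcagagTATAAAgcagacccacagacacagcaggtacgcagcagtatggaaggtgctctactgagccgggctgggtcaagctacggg
The Pck1 window holds TTACGTCA, the letters of its known cAMP response element, at -93 to -86, as do 0.499% of 32851 promoter windows of the same length. Pklr has a TATAAA at -31 to -26, found in 13.6% of windows, and a CCAAT on the minus strand at -117 to -113, found in 37.4%. The upstream Pcx window has CACGTG at -248 to -243, an E-box found in 7.15% of windows, and CCAAT at -180, -51 and -21. For 8 members there were 10 windows. Searched on both strands were also TGACGTCA (1.79% of windows), GTAAACA (3.65%), TTGCGCAA (0.183%) and the palindromic HNF1 motif (0.00913%), none of which matched in a member's window. No matches in these 10 windows shared a base. Of the motifs searched, Fbp1 held 1 CCAAT, Foxo1 held 3 and Slc2a2 held 2, and Pygl and Ppargc1a held none.

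Library totals lay between 6514863 and 7944684 counts, of which 71.6% to 91.3% were mitochondrial, leaving 569044 to 2132208 nuclear counts per library. Levels are given as CPM, counts per 1000000 after TMM normalization, a scaling by the bulk of the genes. Unless another tool is named, a p comes from the quasi-likelihood test of edgeR, and an adjusted p is corrected by Benjamini-Hochberg over all genes tested. Hepatocyte markers were detected in every library, 7 of the 7 in the table from 8 listed, at a summed 10937 to 18149 CPM in Control, 9515 to 18604 in DSS and 7810 to 10117 in Indirubin. Indirubin-2 and Indirubin-3 stood apart: 12 of 12 pancreatic acinar markers were detected in each, at a summed 1377 and 1374 CPM, against 10.2 CPM in Indirubin-1, 8.61 to 22.1 in Control and 0 to 3.07 in DSS. Adipocyte markers, 5 of 6 detected in some library and Adipoq at 0 in all, summed to 43.5 and 51.4 CPM in those libraries and 3.01 to 15.1 CPM in the other 7. Of the 6, 2 were detected in Indirubin-2, 4 in Indirubin-3 and 1 or 2 in each of the other 7. Myeloid markers (7 of 7) summed to 84.6, 271 and 125 CPM in the indirubin libraries and 34.0 to 57.9 CPM elsewhere. Skeletal muscle markers reached 191 CPM in Indirubin-3, with Myh4 at 0 throughout. Islet markers reached at most 2.83 CPM, with Gcg, Ppy and Pcsk1 at 0 in all 9 libraries. Kidney tubule markers (2 of 6 detected) reached at most 2.01 CPM and enterocyte markers (5 of 6) at most 6.60 CPM. The part these cells play in the results below was not tested, and fewer hepatocytes and less RNA per hepatocyte cannot be told apart in bulk tissue.

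No member passed an adjusted p of 0.05 in any of the 3 comparisons. DSS against Control had 0 of 8 tested members called, where 0.708% of 7482 genes were, and 0 at an unadjusted p under 0.05, where 7.52% of genes were (3.48% higher and 4.05% lower). Indirubin against DSS had 0 of 8 members, as did all 9117 genes (0%), and 1 of 8 (Pcx) at an unadjusted p under 0.05 against 7.68% of genes (4.45% higher and 3.22% lower). Indirubin against Control had 0 of 8, where 0.236% of 8059 genes passed, and again Pcx alone at an unadjusted p under 0.05 against 13.8% of genes (7.45% higher and 6.38% lower). The Wald test of DESeq2 gave the same counts of 0 called, where it called 1.91%, 0.877% and 3.92% of all genes, and 0, 1 and 1 members at an unadjusted p under 0.05, beside 8.93%, 9.37% and 15.5% of all genes. Groups that did not overlap were found for 0, 1 and 3 of the 8 tested members in that order, beside 15.7% (7.07% higher, 8.62% lower), 16.4% (10.4% and 6.04%) and 21.5% (12% and 9.5%) of all genes tested. The median log2 fold change of the 8 tested members was -0.03, -0.25 and -0.36 in that order, beside 0.01, 0.15 and 0.13 over all genes tested.

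Of the 3 gluconeogenic members, Pcx was higher in every indirubin library than in every DSS and every Control library, Pck1 was higher in 2 of the 3 indirubin libraries, and Fbp1 lay between 32.1 and 67.6 CPM in all 9 libraries. Pcx (ENSMUSG00000024892, GRCm39 chromosome 19, 4560500 to 4671780, plus strand) encodes the mitochondrial enzyme that turns pyruvate into oxaloacetate. It was read at 18.5, 10.9 and 7.78 CPM in Control, 17.0, 7.08 and 15.9 CPM in DSS and 20.1, 32.0 and 44.0 CPM in Indirubin. Its groups did not overlap in either indirubin comparison, as for 10.4% of genes, counted as higher, against DSS and 12% against Control. Indirubin gave a log2 fold change of 1.27 (SE 0.46, adjusted p = 0.519) over DSS and 1.41 (SE 0.44, adjusted p = 0.180) over Control, and 0.15 (SE 0.45) for DSS over Control. In Indirubin-1, the library with 10.2 CPM of acinar markers, Pcx was above all 6 other-group libraries but by less: that library alone gave 0.59 over DSS and 0.69 over Control. Lrfn4, on the opposite strand and overlapping Pcx, had 23 counts over the 9 libraries against 1568 for Pcx.

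Pck1 (ENSMUSG00000027513, chromosome 2, 172994841 to 173001066, plus strand) encodes the cytosolic enzyme that makes phosphoenolpyruvate from oxaloacetate. Its levels were 92.3, 103 and 114 CPM in Control, 55.2, 51.1 and 132 CPM in DSS and 68.0, 210 and 166 CPM in Indirubin. Indirubin-2 and Indirubin-3 lay above all other libraries and Indirubin-1 below all Control libraries, so the groups overlapped in every comparison. Pck1 had a log2 fold change of 0.91 (SE 0.52, adjusted p = 0.770) for Indirubin over DSS and 0.57 (SE 0.44, adjusted p = 0.641) for Indirubin over Control. DSS over Control gave -0.37 (SE 0.36, adjusted p = 0.989). Indirubin-1 alone turned the direction, with -0.22 over DSS and -0.61 over Control, while the difference over DSS was 1.48 without DSS-3 and 0.57 without Indirubin-2. DSS over Control was -0.89 without DSS-3 and -0.14 without DSS-2.

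Fbp1 (ENSMUSG00000069805, chromosome 13, 63012567 to 63036096, minus strand) removes a phosphate from fructose-1,6-bisphosphate. Its counts were 288, 246 and 176 in Control, 423, 261 and 742 in DSS and 207, 397 and 686 in Indirubin. As CPM these ran from 42.8 to 55.9 in Control, from 46.2 to 67.6 in DSS and from 32.1 to 58.6 in Indirubin. The 3 groups overlapped, and the log2 fold changes were 0.24 (SE 0.30) for DSS over Control and -0.34 (SE 0.39) for Indirubin over DSS. Without DSS-3 these were 0.092 and -0.17, and without Indirubin-3 the latter was -0.63.

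**Figure D1:**
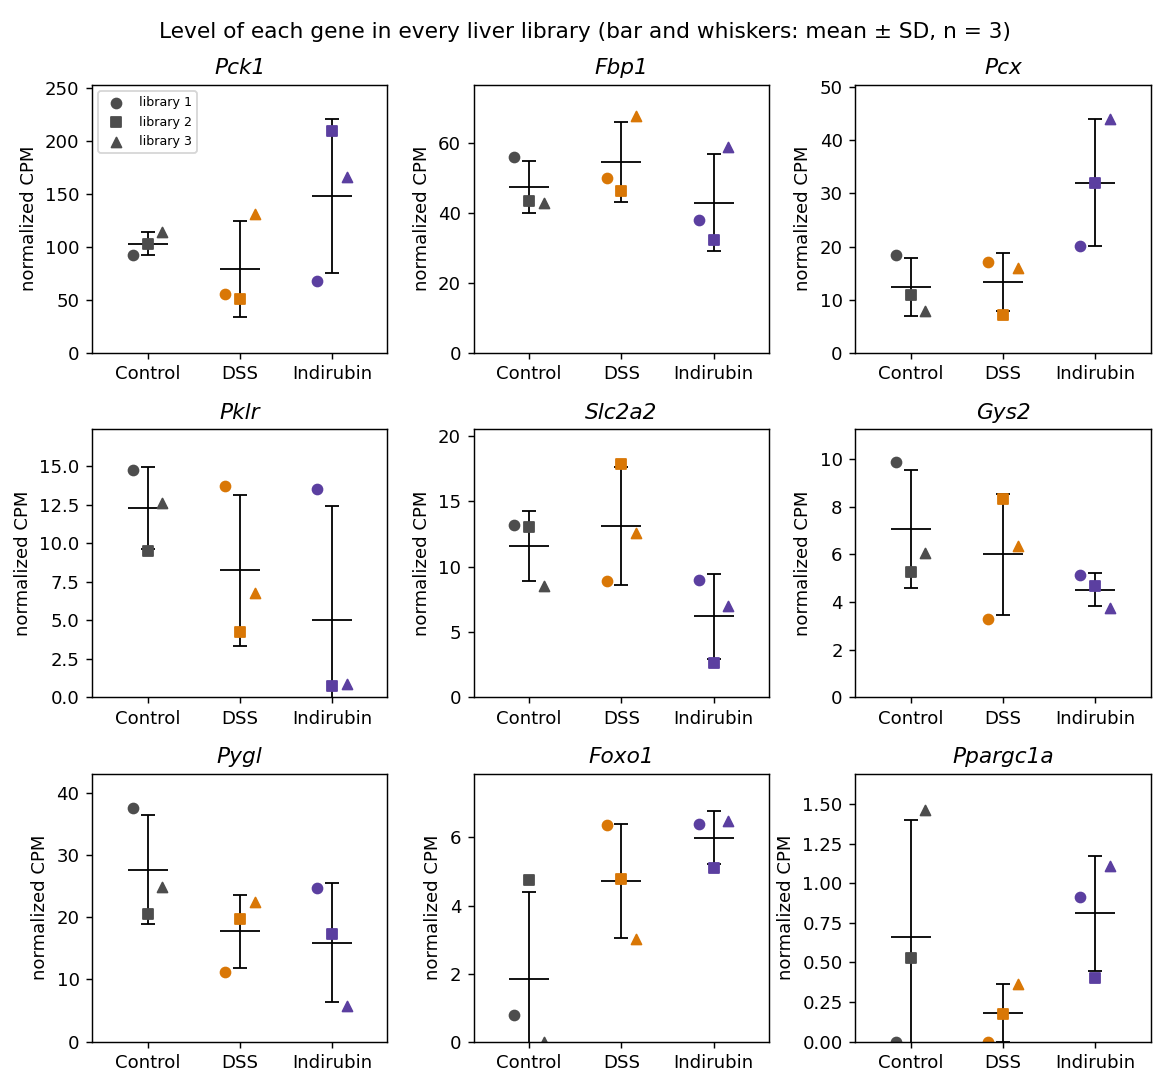
Normalized CPM (vertical axis, from 0) of each of the 9 genes in the 9 liver libraries, by group on the horizontal axis. Points are libraries 1 to 3 of a group, and the bar and whiskers are the mean and SD (n = 3, whiskers cut at 0). Pcx is at 20.1 to 44.0 in the indirubin libraries and at most 18.5 elsewhere, and Pklr is at 13.5 in Indirubin-1 but 0.73 and 0.85 in Indirubin-2 and Indirubin-3.

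Among the other gluconeogenesis genes, G6pc, whose enzyme makes free glucose, was lowest in the indirubin livers. It had 38.1, 23.0 and 24.1 CPM in Control, 12.6, 5.31 and 23.5 CPM in DSS and 8.23, 2.67 and 4.44 CPM in Indirubin. Every indirubin library lay below every Control library, as for 9.5% of genes, and Indirubin-1 and the libraries with acinar transcripts were alike in this. The log2 fold change of Indirubin over Control was -2.47 (SE 0.47, adjusted p = 0.0549), the smallest adjusted p of all the glucose genes listed. It passed 0.05 in 6 of 15 alternatives, among them the DESeq2 Wald test (adjusted p = 0.000435) and the fit without Indirubin-1 (0.00187), and not in the other 9, where Indirubin-1 alone gave -1.80 (0.267) and leaving out 1 library gave an adjusted p of up to 0.330. Over DSS the change was -1.45 (SE 0.61, adjusted p = 0.604), and DSS over Control gave -1.01 (SE 0.46, adjusted p = 0.647). Single libraries moved both values: the first became -2.05 when Indirubin-1 was dropped and -0.83 when DSS-3 was, and the second became -1.58 when DSS-3 was dropped and -0.65 when DSS-2 was.

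Of the 20 list genes of gluconeogenesis in the table, 17 or 18 were tested per comparison and none passed an adjusted p of 0.05. At an unadjusted p under 0.05, 0 were higher and 3 lower in DSS than in Control, 1 higher and 1 lower in Indirubin than in DSS, and 0 higher and 1 lower in Indirubin than in Control. Over all genes tested these shares were 3.48% higher and 4.05% lower, 4.45% and 3.22%, and 7.45% and 6.38%, in that order. Gpt2, a mitochondrial alanine transaminase, was at 33.8 ± 2.73 CPM in Control, 17.6 ± 2.13 in DSS and 34.9 ± 4.22 in Indirubin (SD, n = 3). All 3 DSS libraries were below the other 6 libraries for Gpt2, with log2 fold changes of -0.91 (SE 0.31, adjusted p = 0.393) and 1.00 (SE 0.37, adjusted p = 0.524) for DSS over Control and Indirubin over DSS. Slc25a13, the aspartate carrier of the inner mitochondrial membrane, was at 14.9 ± 2.29 CPM in Control and 7.48 ± 3.15 CPM in DSS, with a log2 fold change of -0.94 (SE 0.44, adjusted p = 0.662). Pck2, the mitochondrial counterpart of Pck1, had 1 to 53 counts per library.

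Pklr and Slc2a2, which serve glucose uptake and breakdown in hepatocytes, had their lowest mean levels in indirubin livers, but the libraries of that group differed widely for Pklr. Pklr (ENSMUSG00000041237, chromosome 3, 89043449 to 89054091, plus strand) encodes the liver and red cell pyruvate kinase, the last enzyme of glycolysis. It was at 14.8, 9.49 and 12.6 CPM in Control, 13.7, 4.25 and 6.74 CPM in DSS and 13.5, 0.73 and 0.85 CPM in Indirubin. Indirubin-1 had 74 counts and lay within the Control range, whereas Indirubin-2 and Indirubin-3 had 9 and 10 counts and lay below all other libraries. Pklr had a log2 fold change of -0.76 (SE 0.95, adjusted p = 0.970) over DSS and -1.35 (SE 0.88, adjusted p = 0.549) over Control. Without Indirubin-1 these values became -3.44 (adjusted p = 0.0657) and -4.03 (adjusted p = 0.00187, in a fit that called 4.78% of all genes), without Indirubin-2 -0.23 and -0.81, and with Indirubin-1 alone 0.72 and 0.13, so the libraries that carry acinar transcripts and the low Pklr values are the same ones. Hcn3, on the opposite strand and overlapping Pklr, had at most 32 counts in a library.

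Slc2a2 (ENSMUSG00000027690, chromosome 3, 28752052 to 28785508, plus strand) encodes GLUT2, which moves glucose both into and out of hepatocytes. Its levels were 13.2, 13.0 and 8.51 CPM in Control, 8.86, 17.9 and 12.6 CPM in DSS and 8.96, 2.59 and 7.01 CPM in Indirubin. Indirubin-2 and Indirubin-3 lay below all other libraries, and Indirubin-1 overlapped both other groups. The log2 fold change of Indirubin was -1.08 (SE 0.53, adjusted p = 0.695) over DSS and -0.89 (SE 0.49, adjusted p = 0.464) over Control, and was 0.22 (SE 0.41) for DSS over Control. Without Indirubin-2 the first 2 values were -0.71 and -0.52, and without Indirubin-1 the value over Control was -1.37.

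**Figure D2:**
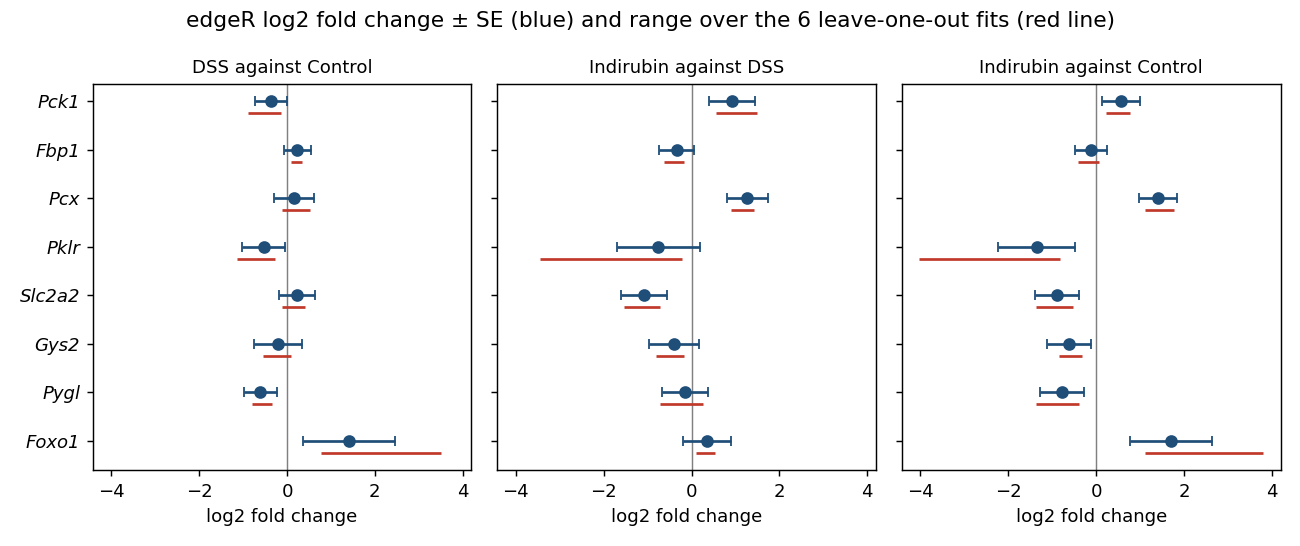
Log2 fold change (horizontal axis) of the 8 tested genes in the 3 comparisons, with the standard error from edgeR in blue. The red line under each point spans the 6 fits that each leave out 1 library, which for Pklr over Control runs from -4.03 to -0.81 and for Pcx from 1.11 to 1.78.

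Of the 33 genes listed for glycolysis and fructose use, 24 to 27 were tested and none passed an adjusted p of 0.05. At an unadjusted p under 0.05, 3 were higher and 2 lower in DSS than in Control, 2 higher and 3 lower in Indirubin than in DSS, and 3 higher and 2 lower in Indirubin than in Control, beside 7.52%, 7.68% and 13.8% of all genes in either direction. Ldha, lactate dehydrogenase A, was at 49.8 ± 2.09 CPM in Control and 98.6 ± 7.62 CPM in DSS, without overlap, with a log2 fold change of 1.02 (SE 0.28, adjusted p = 0.180) that passed in 1 of 14 alternatives, the DESeq2 Wald test (0.00276), with adjusted p up to 0.734. Its indirubin libraries had 36.4, 83.6 and 81.7 CPM, so Indirubin-1 was below Control and the others between Control and DSS. Pfkfb1, the liver enzyme that sets fructose-2,6-bisphosphate, was at 14.9, 4.07 and 7.56 CPM in DSS, against 3.71 ± 1.21 in Control and 2.62 ± 1.11 in Indirubin. DSS overlapped Control, with a log2 fold change of 1.30 (SE 0.59, adjusted p = 0.647) that was 0.66 without DSS-1, and lay above Indirubin, with -1.76 (SE 0.64, adjusted p = 0.513) for Indirubin over DSS. Pdk2, a kinase that restrains pyruvate dehydrogenase, was at 12.4 ± 1.41 CPM in Control and 4.82 ± 1.64 CPM in DSS, with a log2 fold change of -1.33 (SE 0.46, adjusted p = 0.405). Its relative Pdk4, a fasting-induced kinase, had 0 to 69 counts per library and was at 1.09 ± 1.59, 2.38 ± 1.81 and 4.59 ± 1.17 CPM in Control, DSS and Indirubin.

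Pfkl and Gpi1 lay higher in every indirubin library than in every DSS library and Khk had a lower mean with overlap, none of them passing the adjusted test. Of the 27 list genes tested there, 3 were higher and 5 lower without overlap, beside 10.4% and 6.04% of all genes. Pfkl, liver-type phosphofructokinase, was at 8.32 ± 2.27 CPM in Control, 5.40 ± 1.33 in DSS and 11.8 ± 4.15 in Indirubin. Its log2 fold change for Indirubin over DSS was 1.14 (SE 0.48, adjusted p = 0.607). The DSS libraries all lay below the Control libraries, with -0.58 (SE 0.50, adjusted p = 0.963). Indirubin overlapped Control, with 0.54 (SE 0.43, adjusted p = 0.647). Gpi1, glucose-6-phosphate isomerase, was at 10.9 to 19.7 CPM in Control, 15.2 to 19.9 in DSS and 20.5, 35.8 and 66.0 in Indirubin. Its log2 fold change over DSS was 1.23 (SE 0.46, adjusted p = 0.529) and was 0.70 without Indirubin-3. Khk, which phosphorylates fructose, was at 40.9 ± 4.08 CPM in Control, 52.3 ± 12.4 in DSS and 27.7 ± 11.2 in Indirubin, which overlapped Control. Its log2 fold change over DSS was -0.91 (SE 0.41, adjusted p = 0.647). It was -1.38 without Indirubin-1, whose 40.6 CPM lay above the 39.7 CPM of DSS-1. Gapdh, one of the 2 counted as lower in DSS than in Control, had 0 to 74 counts per library and overlapped between the groups, with a log2 fold change of -3.86 (SE 1.44, adjusted p = 0.465) that was -1.74 without Control-1. Gapdh has processed copies in the mouse genome, and how reads shared with them were counted is not given in the sources used here.

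Gys2 and Pygl, which oppose each other in glycogen turnover, had their lowest means in indirubin livers, and neither passed the adjusted test in any comparison. Gys2 (ENSMUSG00000030244, chromosome 6, 142368339 to 142418835, minus strand) encodes liver glycogen synthase. It was at 9.91, 5.27 and 6.08 CPM in Control, 3.31, 8.32 and 6.38 CPM in DSS and 5.12, 4.69 and 3.76 CPM in Indirubin. The indirubin libraries all lay below the Control libraries, as for 9.5% of genes, the nearest values being 5.12 and 5.27 CPM. The log2 fold change was -0.62 (SE 0.50, adjusted p = 0.649), which scaling by library size alone turned to 0.34. DSS overlapped both groups, with -0.21 (SE 0.54) for DSS over Control and -0.40 (SE 0.56) for Indirubin over DSS. Without Control-1 Indirubin over Control was -0.32, and Indirubin over DSS ran from -0.80 without DSS-1 to -0.18 without DSS-2.

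Pygl (ENSMUSG00000021069, chromosome 12, 70237585 to 70278262, minus strand) encodes liver glycogen phosphorylase, which frees glucose-1-phosphate from glycogen. Its levels were 37.5, 20.6 and 24.8 CPM in Control, 11.1, 19.6 and 22.4 CPM in DSS and 24.7, 17.2 and 5.73 CPM in Indirubin. All groups overlapped, and Indirubin-3, at 67 counts, was the lowest library. The log2 fold change was -0.61 (SE 0.38, adjusted p = 0.860) for DSS over Control and -0.78 (SE 0.50, adjusted p = 0.538) for Indirubin over Control, and both turned to 0.089 when scaled by library size alone. DSS over Control was -0.35 without Control-1, and Indirubin over Control was -1.36 (adjusted p = 0.149) without Indirubin-1 and -0.38 without Indirubin-3.

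Of the 22 further glycogen genes in the table, 13 to 18 were tested and none passed an adjusted p of 0.05. None had an unadjusted p under 0.05 in DSS against Control, and 2 were higher and 0 lower in each indirubin comparison, where 4.45% (over DSS) and 7.45% (over Control) of all genes were higher. These were the same 2 genes, Phkg1 and Gyg. Phkg1, the catalytic subunit of muscle-type phosphorylase kinase, had 6, 2 and 0 counts in Control, 18, 0 and 12 in DSS and 105, 41 and 68 in Indirubin. Its log2 fold change over Control was 4.13 (SE 0.96, adjusted p = 0.0941), Indirubin-1 had the highest level of the 3 at 19.2 CPM, and it passed in 5 of 14 alternatives. Indirubin-1 alone gave 5.12 from an arm of 1 library, and the change was 3.00 (adjusted p = 0.204) without Indirubin-1 and 5.45 without Control-1. Over DSS the log2 fold change of Phkg1 was 3.06 (SE 0.97, adjusted p = 0.456), and 1.97 (adjusted p = 0.768) without Indirubin-1. Gyg, glycogenin, the protein primer of glycogen, had 0, 3 and 0 counts in Control, 8, 6 and 19 in DSS and 25, 50 and 56 in Indirubin. Against the floor of 3 counts per library, Gyg was at least 7.28-fold higher in Indirubin than in Control, and its indirubin levels, 4.57, 4.04 and 4.79 CPM, were close to each other. Its log2 fold change was 4.47 (SE 1.14, adjusted p = 0.118) over Control and 1.83 (SE 0.78, adjusted p = 0.616) over DSS. Leaving out 1 library gave an adjusted p of 0.0947 to 0.377 over Control.

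Foxo1 was higher in every indirubin library than in every Control library, as for 12% of genes, and Ppargc1a did not pass the filter on low counts. Foxo1 (ENSMUSG00000044167, chromosome 3, 52175757 to 52260642, plus strand) encodes the forkhead factor that drives G6pc and Pck1 when insulin is low. Its counts were 4, 27 and 0 in Control, 54, 27 and 33 in DSS and 35, 63 and 76 in Indirubin. In CPM these were 0.78, 4.75 and 0, then 6.38, 4.78 and 3.01, then 6.40, 5.10 and 6.50, so that Control-2 lay within the DSS range and just below the indirubin libraries. The log2 fold change was 1.41 (SE 1.04, adjusted p = 0.920) for DSS over Control, 0.35 (SE 0.54, adjusted p = 0.976) for Indirubin over DSS and 1.70 (SE 0.93, adjusted p = 0.457) for Indirubin over Control. Single libraries moved these values: Indirubin over DSS was 0.10 without DSS-3, DSS over Control was 3.51 without Control-2 and 0.77 without Control-3, and Indirubin over Control was 3.81 and 1.11. Ppargc1a (ENSMUSG00000029167, chromosome 5, 51611592 to 51725068, minus strand) encodes the coactivator PGC-1 alpha. It had 0, 3 and 6 counts in Control, 0, 1 and 4 in DSS and 5, 5 and 13 in Indirubin. The indirubin values of 0.91, 0.40 and 1.11 CPM overlapped Control. They lay above the DSS values, of which the highest was 0.36 CPM, as for 10.4% of the genes tested. With no filter on low counts, the log2 fold change was 1.94 (SE 2.56, adjusted p = 0.733) for Indirubin over DSS and 0.34 (SE 1.93, adjusted p = 0.946) over Control. DSS over Control was -1.75 (SE 2.98, adjusted p = 0.897). The 4 predicted transcripts that overlap the locus had up to 12 counts in a library.

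**Figure D3:**
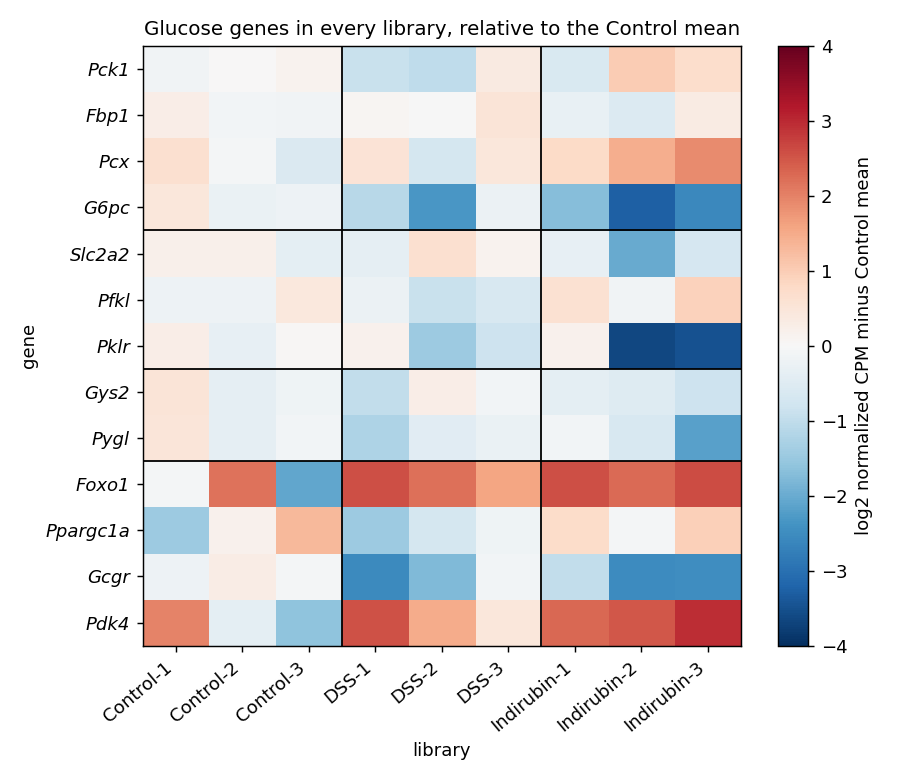
Log2 normalized CPM (prior count of 2) minus the Control mean for the 9 genes and 4 other glucose genes (rows) in the 9 libraries (columns), with lines between gene roles and between groups and colours limited to 4 either way. G6pc is below the Control mean in all 6 DSS and indirubin libraries, and Pklr is at -3.65 and -3.47 in Indirubin-2 and Indirubin-3 but 0.16 in Indirubin-1.

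Of the 36 regulators listed, 28 to 31 were tested and none passed an adjusted p of 0.05. At an unadjusted p under 0.05, 1 was higher and 2 lower in DSS than in Control, 2 higher and 1 lower in Indirubin than in DSS, and 3 higher and 2 lower in Indirubin than in Control, beside 7.52%, 7.68% and 13.8% of all genes in either direction. Gcgr, the glucagon receptor, was at 24.1, 34.1 and 26.7 CPM in Control, 4.61, 8.14 and 25.9 CPM in DSS and 13.9, 4.69 and 4.79 CPM in Indirubin. Every indirubin library was below every Control library for Gcgr, with a log2 fold change of -1.86 (SE 0.47, adjusted p = 0.113). It passed in 3 of 15 alternatives, with adjusted p from 0.00172 without Indirubin-1 to 0.641 with Indirubin-1 alone, where the change was -1.03. Mlxipl, the carbohydrate-sensing factor ChREBP that drives Pklr, was at 7.47 ± 4.65 CPM in Control, 2.51 ± 1.58 in DSS and 1.93 ± 1.56 in Indirubin, and the groups overlapped. Its log2 fold change was -1.52 (SE 0.71, adjusted p = 0.672) for DSS over Control, -0.38 (SE 1.11, adjusted p = 0.984) for Indirubin over DSS and -1.93 (SE 0.87, adjusted p = 0.346) for Indirubin over Control. Leaving out 1 library gave -2.05 to -1.05, -0.92 to 0.18 and -2.57 to -1.36 in that order, so that the sign over DSS turned without DSS-3 or Indirubin-2. Cebpb, a factor of the acute phase and of gluconeogenic genes, was at 7.12 ± 5.25 CPM in DSS and 19.6 ± 2.09 in Indirubin, with 1.45 (SE 0.62, adjusted p = 0.618) over DSS, which was 0.88 without DSS-2, and no overlap with either other group.

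Irs2, an insulin receptor substrate and a FOXO1 target, had 18, 15 and 14 counts in Control, none in the 3 DSS libraries and 29, 46 and 8 in Indirubin. Against a floor of 3 counts per library, Irs2 was at least 8.23-fold higher in Control than in DSS and at least 8.38-fold higher in Indirubin than in DSS, and the edgeR adjusted p for DSS against Control was 0.180. Nr0b2, the bile acid-induced repressor SHP, ran the other way, at 2.27 ± 1.93 CPM in Control, 7.94 ± 2.64 in DSS and 2.81 ± 1.92 in Indirubin, with the DSS libraries above all others. Its log2 fold changes were 1.82 (SE 0.69, adjusted p = 0.477) for DSS over Control and -1.46 (SE 0.63, adjusted p = 0.624) for Indirubin over DSS, and became 2.77 without Control-1 and -2.18 without Indirubin-2. Igfbp1, a secreted protein induced by fasting and by FOXO1, was at 11.3, 37.9 and 100 CPM in Indirubin and 2.13 to 27.6 CPM elsewhere, so that Indirubin-1 lay within the range of the other groups. Pik3r1, the regulatory subunit of PI3 kinase, was at 5.77 ± 0.291 CPM in Control and 11.2 ± 2.84 CPM in Indirubin, a log2 fold change of 1.00 (SE 0.41, adjusted p = 0.306).

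Compared per kilobase of gene length, Pck1 and Fbp1 were the most abundant members in all groups. Control levels were 30.1 ± 3.21 CPM per kb for Pck1 and 27.8 ± 4.38 for Fbp1, which overlapped, and both lay above all the others. Pygl, Pklr, Gys2, Pcx and Slc2a2 followed at 4.01 to 2.01 CPM per kb, each overlapping the next, and Foxo1 (0.21 ± 0.29) and Ppargc1a (0.10 ± 0.11) were lowest and overlapped. In DSS the order of the leading genes was Fbp1 (32.1 ± 6.71) and Pck1 (23.1 ± 13.2), again overlapping, and the next 5 genes lay between 2.81 and 2.26 CPM per kb without separating. In Indirubin, Pck1 (43.2 ± 21.2) and Fbp1 (25.2 ± 8.20) overlapped, and Pcx stood alone in rank 3 at 6.74 ± 2.51 CPM per kb, above every value of Pygl at 2.30 ± 1.38. Gys2, Pklr, Slc2a2 and Foxo1 then overlapped in sequence, from 1.70 to 0.69 CPM per kb.

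Several members have counterparts that serve other tissues, and the share that the liver form held of the family's level per length differed between families and libraries. Pklr made up 59.9 ± 10.6% of the summed CPM per kb of Pklr and Pkm in Control, 35.5 ± 8.59% in DSS and 19.3 ± 28.9% in Indirubin (SD, n = 3), where the lowest and highest libraries were at 2.42% and 52.6%. Pkm, the pyruvate kinase of muscle, leukocytes and proliferating cells, was at 12.6 ± 2.83 CPM in Control, 21.8 ± 7.72 in DSS and 36.9 ± 17.2 in Indirubin. Its log2 fold change was 1.60 (SE 0.44, adjusted p = 0.136) for Indirubin over Control and 0.85 (SE 0.39, adjusted p = 0.647) for DSS over Control, both without overlap, and Indirubin over Control passed in 4 of 15 alternatives (adjusted p from 0.0103 to 0.910). DSS over Control was 0.50 without DSS-1. Aldoa, the aldolase of muscle and most tissues, was at 22.9 ± 1.89 CPM in Control and at 19.2, 53.5 and 71.6 CPM in Indirubin. Pkm and Aldoa were highest in Indirubin-2 and Indirubin-3, the libraries with the highest myeloid, acinar and adipocyte marker sums.

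The hexokinases of other tissues were low, Hk2 with 0 to 51 counts per library and Hk3 with 0 to 37. Hk1 was at 0.653 ± 0.619 CPM in Control, 2.00 ± 1.85 in DSS and 2.69 ± 0.0488 in Indirubin. Its indirubin libraries lay above Control, as for 12% of genes, with a log2 fold change of 2.05 (SE 1.14, adjusted p = 0.463). Hk2 lay above DSS in every indirubin library, the nearest having 3 counts against 1, and was not tested there. Slc2a2 held 82.0 ± 12.1%, 87.6 ± 16.8% and 74.2 ± 7.93% of the sum with Slc2a1 in Control, DSS and Indirubin. Gys2 held 95.5 ± 6.33%, 96.0 ± 6.86% and 81.0 ± 8.20% of the sum with Gys1, and Pygl 91.4 ± 11.2%, 78.6 ± 14.9% and 65.2 ± 33.6% of the sum with Pygb and Pygm. Pygm, the muscle form, reached 62 counts in Indirubin-3, the library with 191 CPM of skeletal muscle markers and the lowest Pygl share at 26.6%. Fbp2, another muscle form, had 16 counts in that library and 0 in the other 8. Pck1 held at least 97.3% of the sum with Pck2 in every library.

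**Figure D4:**
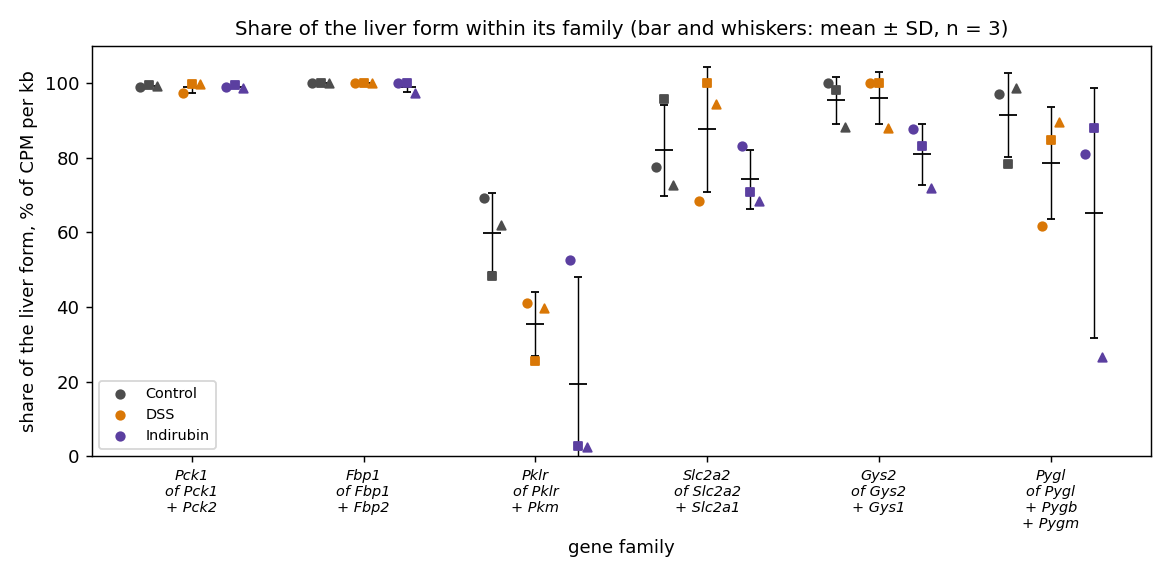
Share of the liver form (vertical axis, percent of the family's summed CPM per kb) in each library for 6 gene families (horizontal axis), coloured by group, with the mean and SD (n = 3). The Pklr share is at 2.42% to 52.6% in Indirubin, and the Pck1 share is at 97.3% or more in every library.

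Over the 9 libraries, 6 members had at least 10 counts in each and could be set against the 3075 genes that also did, by the root mean square difference of log2 CPM after each gene was centred on its mean. Pck1 was nearest to Tat (0.295) and Adipor1 (0.310), beside a spread of 0.655 of Pck1 about its own mean. Tat, tyrosine aminotransferase, belongs to the gluconeogenesis list and to the hepatocyte markers. Srsf5 (0.270) was among the 2 genes nearest to Pcx, which had a spread of its own of 0.806, and Slc2a2 was nearest to Sntb1 (0.248) and Cyp2d26 (0.280), with 0.725. Fbp1, with the narrowest spread of 0.311, was nearest to Aldh8a1 (0.189) and Cst3 (0.197). Gys2 was nearest to Szrd1 (0.231) and Rgl1 (0.261), and Pygl to Fbxw11 and Abhd17c (both 0.234). The libraries share group, depth and tissue make-up, so these values describe likeness in these 9 libraries only.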

How the data were processed

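Liver RNA of 9 mice, 3 per group, was sequenced by the authors from 400 ng per library on a DNBSEQ instrument. The authors deposited whole-number counts per gene on GRCm39 (per the labels' processing notes), without normalization, beside FPKM values, which were only checked against the counts here. Aligner and counting program are not given in the sources used here. The 15 deposited columns of log2 fold changes and p-values from the authors' own comparisons, and 3 gene lists without values per mouse, were not used.

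Each comparison of 6 libraries was tested on counts with edgeR 4.0.16 in R 4.3.3: TMM, filterByExpr (minimum count 10, minimum total 15) and the quasi-likelihood F test, with Benjamini-Hochberg adjustment. The SE is the log2 fold change over the square root of F. Up to 3 counts in every library of a group was taken as the floor. The floor covers counting error only, whereas the SE and SD include the spread between libraries. An exact permutation test of 3 against 3 cannot go below p = 0.1. The labels do not say that libraries of a group came from separate cages or batches, and p-values measure only the spread between these libraries. No 2 libraries of a group were alike within sampling noise.

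Alternatives were DESeq2's size factors, library size alone, no mitochondrial genes, DESeq2 1.42.0 (Wald), no filter, 10 counts in every library, one fit of all 9 libraries, a block on the replicate number, and each library left out. Indirubin-1 alone was added after seeing the data. Numbers did not pair the libraries (correlations of same-numbered deviations -0.165 to 0.07 over 3075 genes).

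Named were the 9 members, G6pc, Pfkl, Pck2, Gcgr, Pdk4 and paralogs always, and up to 3 genes each way per list and comparison by smallest p under 0.05. The nearest 2 genes per member were also named. Some genes that this rule names are not reported here, though they stay in the fits and the list counts. The members and lists were chosen with earlier results of these data known. Promoter windows come from RefSeq (GRCm38.p6), which matched 8 of 9 members, and Gys2 had no entry. Gene coordinates are on GRCm39 and were not mixed with the windows.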

Additional observations from a re-analysis of the deposited data

How the results depend on the processing

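Over 67 fold changes and 959 alternatives, 898 kept direction and side of an adjusted p of 0.05, 31 newly passed it and 30 changed sign. Counted among the 898 were DESeq2 fits without an adjusted p, for Foxo1, Pdk4, Gapdh and Irs2 in DSS against Control. Members at an unadjusted p under 0.05 numbered 2 rather than 1 for Indirubin against DSS with no filter, with all 9 libraries and with the replicate block, where 6.23%, 8.65% and 7.48% of all genes passed, and 0 with Indirubin-1 alone (3.75% of all genes). For Indirubin against Control they numbered 3 with library size alone, no filter or the replicate block, rather than 1, where 27.6%, 8.64% and 12.8% of all genes passed, and 0 with Indirubin-1 alone (7.83% of all genes), while library size alone called 1 member (Pcx, 2.46, adjusted p = 0.0423) rather than 0, and 3.3% of all genes rather than 0.236%. A fit of Indirubin-1 alone assumes that this library varies like those of the other group.

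Leaving out 1 library gave 0 to 1 members at an unadjusted p under 0.05 in DSS against Control (1 without Control-2, DSS-1 or DSS-3, where 5.68%, 7.71% and 7.69% of all genes passed), 0 to 4 in Indirubin against DSS (0 without DSS-2 or Indirubin-3, where 8.44% and 4.89% of all genes passed, and 4 without Indirubin-1, where 10.4% of all genes passed) and 1 to 5 in Indirubin against Control (5 without Indirubin-1, where 17.5% of all genes passed). In that comparison 0 to 1 members passed the adjusted p, the 1 being Pklr without Indirubin-1, where 4.78% of all genes passed, against 0.236% with all 6 libraries.

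Library size alone turned DSS over Control to 0.46 for Pck1, 0.16 for Pklr, 0.43 for Gys2, 0.089 for Pygl and 0.13 for Pfkl, and Indirubin over Control to 0.87 for Fbp1, 0.34 for Gys2 and 0.089 for Pygl. It also moved the median log2 fold change of all genes to 0.70 (DSS over Control), 0.43 (Indirubin over DSS) and 1.11 (Indirubin over Control). Indirubin-1 alone turned Indirubin over DSS to -0.22 for Pck1, 0.72 for Pklr, 0.48 for Pygl, 0.10 for Gcgr, 0.027 for Mlxipl and -0.031 for Igfbp1, and Indirubin over Control to -0.61 for Pck1, 0.13 for Pklr, -0.26 for Aldoa and -0.46 for Igfbp1. Among the fold changes followed, leaving out 1 library turned the sign within these ranges: for DSS over Control, Pcx -0.12 to 0.52, Slc2a2 -0.11 to 0.42 and Gys2 -0.54 to 0.083. For Indirubin over DSS they were Pygl -0.72 to 0.25, Gcgr -1.54 to 0.28 and Mlxipl -0.92 to 0.18, and for Indirubin over Control Fbp1 -0.41 to 0.062. The causes were not tested.

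With the replicate block, Pklr was -1.77 (adjusted p = 0.625) for Indirubin over DSS, and the block called no member in any comparison. In the 3 comparisons 0, 4 and 3 of 6 libraries correlated best with their own number. Nuclear depth was lowest in Control-3 (569044 counts), and Ppargc1a had at most 13 counts in any library.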
